A study of Saccharomyces cerevisiae with 4 samples.

Results

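The 10 genes described here serve the uptake and breakdown of nitrogen sources that budding yeast (Saccharomyces cerevisiae) uses when better ones run out. They are DAL1, DAL2, DAL3, DAL4, DAL5, DAL7, DAL80, DUR3, GAP1 and MEP2, taken by name from a fixed list, and all 10 were found among the 6659 genes measured and passed a filter of at least 1 RPKM on average. RPKM is a read count divided by gene length and by library size. Ribosomal RNA was removed and 1 library was sequenced for each of 4 haploid strains, grown in rich medium with glucose (YPD) to mid-log phase. The strains were ume6∆snf2∆ (ume6 replaced by KanMX and snf2 by NatMX), ume6∆ (KanMX), snf2∆ (NatMX) and wild type (WT). All 4 carry the same listed auxotrophies (his-, ura-, leu-) and a background given as BY4741/2, which leaves the mating type of each strain unstated. Snf2 is the ATPase of the Swi/Snf nucleosome remodelling complex, and Ume6 is a DNA-binding repressor known for early meiotic genes and for the arginine breakdown genes CAR1 and CAR2.

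Yeast that has a good nitrogen source keeps these genes low, which is called nitrogen catabolite repression. The activators Gln3 and Gat1 bind GATA elements upstream of the genes, Ure2 holds Gln3 in the cytoplasm while nitrogen is plentiful, and the repressors Dal80 and Gzf3 compete for the same elements. Dal4 and Dal5 import allantoin and allantoate. Dal1 (allantoinase), Dal2 (allantoicase) and Dal3 (ureidoglycolate lyase) break allantoin down to urea and glyoxylate, and Dal7 is a malate synthase that uses glyoxylate. Dur3 imports urea, Mep2 is the high-affinity ammonium permease and Gap1 the general amino acid permease.

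The element shared by the promoters is shown in the windows that hold most of its copies. GATAAG was searched on both strands in the 500 bases before each start codon. It was found for 10 of the 10 genes, against 22.7% of 6019 promoters of the same length, and at least 2 matches were found for 9 of the 10, against 3.62% of all promoters. DUR3 was the gene with a single match, and MEP2 had the most, with 7. The 35 matches over the 10 genes include overlapping copies (GATAAGATAAG holds 2) and copies that DAL1 and DAL4 share, since these genes diverge from one intergenic region. GCCGCC, the core of the element that Ume6 binds, was searched in the same way and found once each for DAL3, DAL80 and DUR3, against 9.54% of all promoters. The match of DAL3 begins at base -369, within the 506 bases from which DAL3 and the neighbouring gene MGA2 diverge. It therefore lies upstream of both genes. The sequences are from the R64 reference assembly, read 5′ to 3′ on the strand of the gene, with matches of GATAAG (or its reverse complement CTTATC) and of GCCGCC (or GGCGGC) in capitals. The window of DAL4 is also the upstream region of DAL1, read on the other strand.
DAL80, chrXI:506598-506897, plus strand: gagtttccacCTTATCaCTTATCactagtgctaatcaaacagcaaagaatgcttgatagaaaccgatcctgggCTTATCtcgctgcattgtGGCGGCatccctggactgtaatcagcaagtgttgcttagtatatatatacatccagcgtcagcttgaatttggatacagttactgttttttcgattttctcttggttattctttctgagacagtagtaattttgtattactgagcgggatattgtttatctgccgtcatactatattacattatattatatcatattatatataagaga
GAP1, chrXI:514583-514832, plus strand: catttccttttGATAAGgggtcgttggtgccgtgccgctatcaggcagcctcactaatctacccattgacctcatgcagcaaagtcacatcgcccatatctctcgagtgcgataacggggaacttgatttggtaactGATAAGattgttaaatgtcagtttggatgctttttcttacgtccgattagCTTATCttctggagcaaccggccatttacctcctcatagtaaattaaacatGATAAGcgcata
MEP2, chrXIV:356973-357232, plus strand: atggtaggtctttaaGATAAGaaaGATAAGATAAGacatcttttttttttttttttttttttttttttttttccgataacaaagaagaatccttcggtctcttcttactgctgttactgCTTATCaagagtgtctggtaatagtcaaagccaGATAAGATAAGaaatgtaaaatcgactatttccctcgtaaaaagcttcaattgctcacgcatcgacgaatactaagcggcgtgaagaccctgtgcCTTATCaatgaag
DAL4, chrIX:407988-408227, plus strand: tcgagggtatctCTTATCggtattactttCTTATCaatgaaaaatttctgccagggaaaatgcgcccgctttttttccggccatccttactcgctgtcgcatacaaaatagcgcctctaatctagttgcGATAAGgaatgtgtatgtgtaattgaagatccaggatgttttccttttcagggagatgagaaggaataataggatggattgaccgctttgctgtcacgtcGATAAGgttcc
DAL7, chrIX:414829-414909, minus strand: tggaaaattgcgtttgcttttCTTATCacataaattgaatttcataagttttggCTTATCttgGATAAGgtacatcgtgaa
DAL3, chrIX:415637-415807, minus strand: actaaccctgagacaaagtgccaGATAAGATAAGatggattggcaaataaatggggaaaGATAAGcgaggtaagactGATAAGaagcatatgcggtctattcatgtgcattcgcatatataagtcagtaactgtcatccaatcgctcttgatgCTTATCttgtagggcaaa
DUR3, chrVIII:74565-74624, minus strand: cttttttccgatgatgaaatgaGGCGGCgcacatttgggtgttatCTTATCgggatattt

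**Figure D1:**
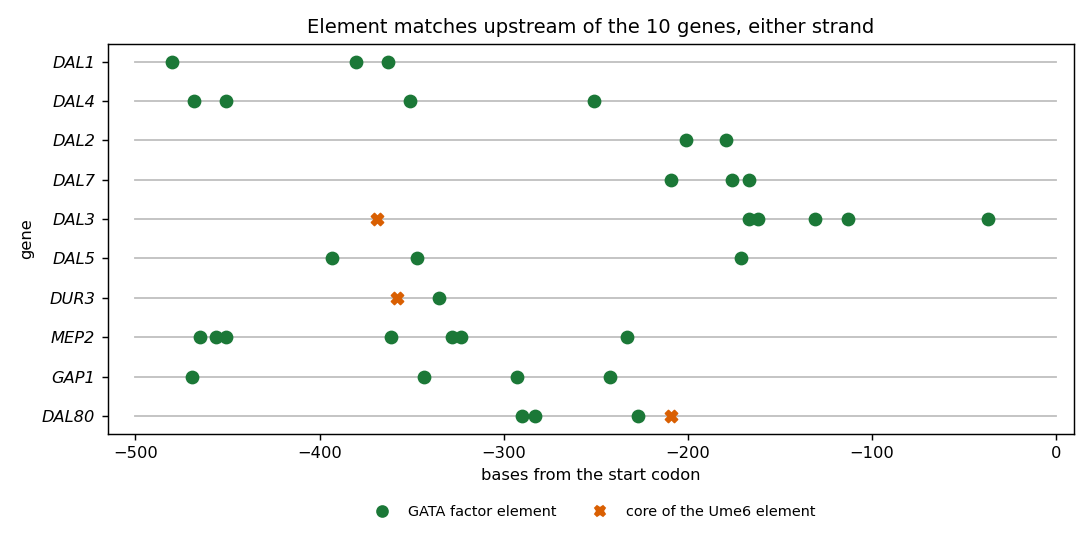
Matches in the 500 bases before the start codon (x axis, bases; y axis, gene), on either strand. Circles mark GATAAG, present for 10 of 10 genes, and crosses mark GCCGCC, present for DAL3, DUR3 and DAL80.

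The libraries differed in ways that bear on all genes. Library sizes inferred from the RPKM were 17.4 M reads for ume6∆snf2∆, 30.2 M for ume6∆, 25.7 M for snf2∆ and 27.7 M for WT. The 10 genes together took 5512, 3592, 7251 and 5882 of those reads in that order. SNF2 was at 0.157 RPKM in ume6∆snf2∆ and 0.107 in snf2∆, against 36.9 in ume6∆ and 67.9 in WT. UME6 had 0.137 RPKM in ume6∆snf2∆ and 0.0132 in ume6∆, whereas snf2∆ had 19.6 and WT 34.6. All 4 alpha-cell markers listed were at least 2-fold higher and all 5 a-cell markers at least 2-fold lower in both snf2 deletion libraries than in WT. MET17 (2350.2 RPKM) and LYS2 (0.385 RPKM) set ume6∆snf2∆ apart from the other libraries. The part of cell type and of these markers in any result below was not tested. The log2 change of the median gene was 0.06 for ume6∆snf2∆ over WT, -0.30 for ume6∆ over WT, -0.11 with snf2∆ over WT, 0.35 for ume6∆snf2∆ over ume6∆ and 0.14 for ume6∆snf2∆ over snf2∆. A log2 change here is log2(RPKM + 1) of one library minus that of another, so low genes changed by more than it shows. A gene is called higher or lower at 2-fold on that scale. With 1 library a strain no difference has a replicate check or a p-value. Ratios are of RPKM, with 95% intervals (exact, Clopper-Pearson) computed from reads recovered from the RPKM, and they cover counting error only.

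Another difference touches the members directly, because 5 of the 10 lie on chromosome IX. The 215 genes kept on that chromosome had a median log2 change of 1.05 for ume6∆snf2∆ over WT (quartiles 0.52 and 1.41), against medians of -0.03 to 0.22 on the other 15 chromosomes. For ume6∆ over WT the median was 0.59 on chromosome IX, against -0.45 to -0.21 elsewhere, and for ume6∆snf2∆ over snf2∆ it was 1.03, against 0.07 to 0.18. The shift ran along the chromosome: the median for ume6∆snf2∆ over WT was 0.997 over its 107 leftmost genes and 1.08 over the other 108. Over the whole chromosome it was not seen between libraries that share their UME6 state. For snf2∆ over WT the median on chromosome IX was -0.07, within the -0.18 to 0.00 of the others, and for ume6∆snf2∆ over ume6∆ it was 0.49, within 0.28 to 0.57. Its 108 rightmost genes, on the side of the DAL cluster, were at 0.065 and 0.635 in these comparisons, above the other chromosomes. Its 107 leftmost genes were at -0.139 and 0.409. The median taken off below is that of the whole chromosome. The number of copies of the chromosome was not measured, and its part in the results was not tested. For members on chromosome IX each change is therefore also given minus the median of that chromosome, a reading chosen after the chromosome medians were seen.

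**Figure D2:**
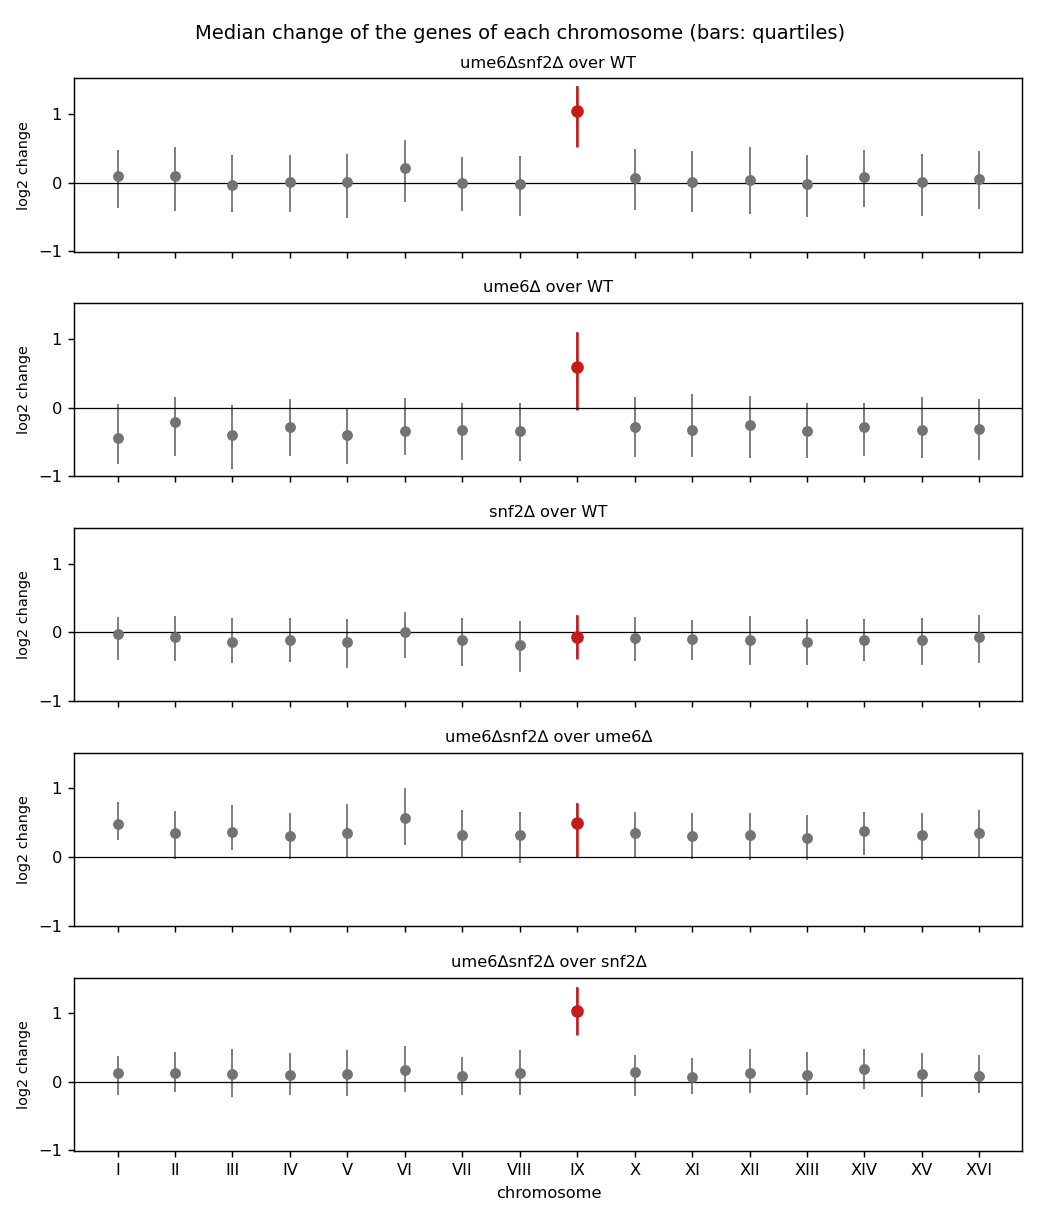
Median log2 change of the genes of each chromosome (points) with quartiles (bars) in the 5 comparisons. Chromosome IX (red) stands above the others in the comparisons of a library without UME6 with one that has it, at 1.05, 0.59 and 1.03, and lies among them in the other 2.

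The 10 genes were low in all libraries, as a group with a median of 15.2 RPKM in ume6∆snf2∆, 6.65 in ume6∆, 10.2 in snf2∆ and 13.2 in WT. The median of all genes was 40.9, 30.8, 35.9 and 39.5 RPKM in the same order. Only GAP1 in snf2∆ lay above the median gene of its library. DAL80 was the lowest member in each library, and GAP1 had the widest range, 9.95-fold between its lowest and highest library, while DAL7 had the narrowest at 1.98-fold. No R64 gene overlaps a member on either strand, and 0% of the 50-base stretches of each member occur elsewhere in the genome. The kit does not mark strand, and 673 names in the expression table had no match in the annotation, so overlap with those was not checked.

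**Figure D3:**
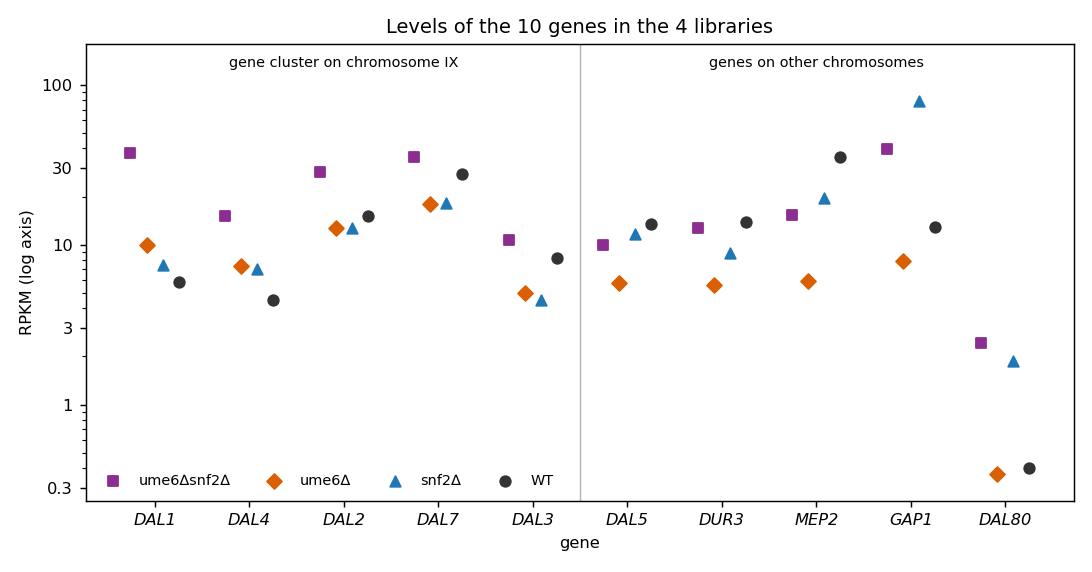
RPKM (log axis) of each member in each library. ume6∆snf2∆ is the highest library for the 5 genes of the cluster and for DAL80, snf2∆ for GAP1, and WT for DAL5 and MEP2. DUR3 was at 12.8 in ume6∆snf2∆ and 13.9 in WT.

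The DAL cluster occupies 9358 bases of chromosome IX (chrIX:406260-415617) and holds DAL1, DAL4, DAL2, DCG1, DAL7 and DAL3 in that order, with 197 to 825 bases between neighbours. DAL1 and DAL4 diverge. DCG1, of uncertain function, lies inside the cluster but is not one of the 10 genes. The enzymes and the permease of the cluster were all highest in ume6∆snf2∆, by amounts that differed between genes.

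DAL1 (YIR027C, chrIX:406260-407642), the first enzyme of allantoin breakdown, had 37.4 RPKM in ume6∆snf2∆, 9.997 in ume6∆, 7.47 in snf2∆ and 5.84 in WT. The double deletion library stood apart, and the others lay within a factor of 1.71 of each other. The ratio of ume6∆snf2∆ to WT was 6.41 (interval 5.53 to 7.45), that to ume6∆ was 3.74 (interval 3.33 to 4.22) and that to snf2∆ was 5.01 (interval 4.37 to 5.77). DAL1 was the 1 cluster gene that stayed at least 2-fold higher once the chromosome IX median was taken off, at a log2 change of 1.44 over WT, 1.31 over ume6∆ and 1.16 over snf2∆. Its change for ume6∆ over WT was 0.68 as measured and 0.10 minus the chromosome median.

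DAL4 (YIR028W, chrIX:408468-410375), the allantoin permease, had 15.2 RPKM in ume6∆snf2∆, 7.37 in ume6∆, 7.01 in snf2∆ and 4.4995 in WT. Its order of libraries was that of DAL1, with which it shares an upstream region. The ratio of ume6∆snf2∆ to WT was 3.38 (interval 2.89 to 3.96), and the log2 change of 1.56 became 0.51 minus the chromosome median. The ratio of snf2∆ to WT was 1.56 (interval 1.32 to 1.85), and there the chromosome median is near 0. For ume6∆snf2∆ over snf2∆ the change was 1.02 as measured and -0.01 minus the chromosome median.

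DAL2 (YIR029W, chrIX:410807-411838), which follows DAL1 in the pathway, had 28.4 RPKM in ume6∆snf2∆, 12.7 in ume6∆, 12.8 in snf2∆ and 15.1 in WT. The double deletion was high and the other libraries were close. The ratio of ume6∆snf2∆ to WT was 1.89 (interval 1.66 to 2.15), and the log2 change of 0.87 was -0.18 minus the chromosome median. Over ume6∆ the change was 1.11, and 0.62 minus the chromosome median. The change for ume6∆ over WT was -0.23 as measured, 0.05 with median ratio scaling and -0.82 minus the chromosome median.

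DAL7 (YIR031C, chrIX:413015-414679), the malate synthase, had 35.5 RPKM in ume6∆snf2∆, 17.9 in ume6∆, 18.3 in snf2∆ and 27.6 in WT. DAL3 (YIR032C, chrIX:415030-415617), the lyase that releases urea, had 10.7 RPKM in ume6∆snf2∆, 4.96 in ume6∆, 4.51 in snf2∆ and 8.22 in WT. Both genes had the same order at the ends, with ume6∆snf2∆ above WT and both single deletions below it. The ratios of ume6∆ to WT were 0.648 for DAL7 (interval 0.594 to 0.706) and 0.604 for DAL3 (interval 0.456 to 0.796). Minus the chromosome median these genes were lower in ume6∆ than in WT by more than 2-fold, at -1.19 for DAL7 and -1.22 for DAL3, and for ume6∆snf2∆ over WT both were at -0.70, against 0.35 as measured. The direction of their change in the double deletion therefore depends on whether the chromosome is taken into account.

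The genes beside the cluster, YVH1 and MGA2, were higher in both libraries without UME6. YVH1, a phosphatase gene, had 256 RPKM in ume6∆snf2∆, 210 in ume6∆, 94.4 in snf2∆ and 69.7 in WT. MGA2, an activator of the fatty acid desaturase gene OLE1, had 356 RPKM in ume6∆snf2∆, 225 in ume6∆, 105 in snf2∆ and 90.9 in WT. DCG1 had 18.7 RPKM in ume6∆snf2∆, 10.6 in ume6∆, 11.0 in snf2∆ and 5.45 in WT, so WT was its lowest library, as for DAL1 and DAL4. Minus the chromosome median, the log2 changes over WT in ume6∆snf2∆ and ume6∆ were short of 2-fold for these genes. They were 0.81 and 0.99 for YVH1, 0.91 and 0.71 for MGA2, and 0.57 and 0.25 for DCG1.

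**Figure D4:**
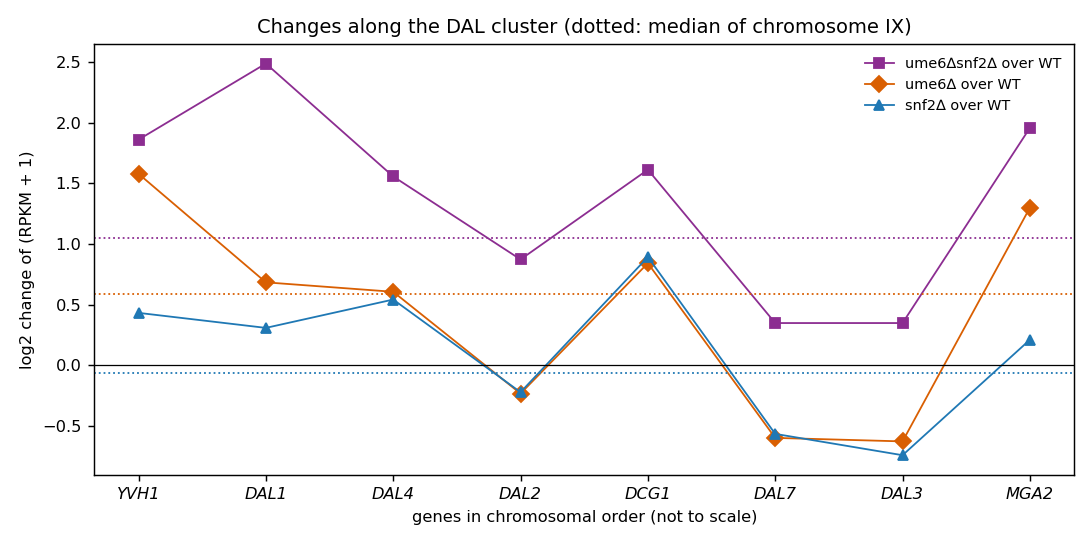
Log2 change over WT of the genes of the DAL cluster and the gene on either side, in chromosomal order (x axis, not to scale). Dotted lines give the chromosome IX median of each comparison: 1.05 for ume6∆snf2∆, 0.59 for ume6∆ and -0.07 for snf2∆. DAL2, DAL7 and DAL3 lie below the line of their comparison in all 3, and DCG1 lies above it.

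The 5 genes outside the cluster are on chromosomes VIII, X, XI and XIV, whose medians did not stand apart. GAP1 and DAL80 were higher in both libraries without SNF2 than in both with it, and MEP2 and DAL5 were highest in WT. MEP2, DUR3, DAL5 and GAP1 were lowest in ume6∆, as was the median of all genes.

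GAP1 (YKR039W, chrXI:515063-516871), the general amino acid permease, had 39.7 RPKM in ume6∆snf2∆, 7.95 in ume6∆, 79.1 in snf2∆ and 12.9 in WT. Both libraries without SNF2 lay above both libraries with it. The ratio of snf2∆ to WT was 6.11 (interval 5.62 to 6.66), and that of ume6∆snf2∆ to ume6∆ was 4.99 (interval 4.47 to 5.57). Without UME6 the level was lower in either background, with ratios of 0.615 for ume6∆ to WT (interval 0.543 to 0.695) and 0.501 for ume6∆snf2∆ to snf2∆ (interval 0.470 to 0.535). The log2 change of ume6∆snf2∆ over snf2∆ was -0.98, or -1.13 after scaling the libraries by their median ratio. That of ume6∆ over WT was -0.64, or -0.37 with the same scaling.

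DAL80 (YKR034W, chrXI:506898-507707), the GATA-family repressor that is itself under nitrogen repression, was near the limit of detection, with 2.41 RPKM in ume6∆snf2∆, 0.368 in ume6∆, 1.88 in snf2∆ and 0.401 in WT. These levels rest on 34, 9, 39 and 9 reads in the same order. The libraries without SNF2 again lay above those with it. The ratio of snf2∆ to WT was 4.68 (interval 2.23 to 11.0) and that of ume6∆snf2∆ to ume6∆ was 6.54 (interval 3.07 to 15.5). The ratio of ume6∆ to WT, 0.919, had an interval of 0.323 to 2.61, so a difference was not detectable at this depth, and the log2 change of -0.03 was 0.05 with median ratio scaling. In its promoter, printed above, the GCCGCC match begins at base -209 from the start codon and the nearest GATAAG match at base -227.

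MEP2 (YNL142W, chrXIV:357453-358952), the ammonium permease that also signals filamentous growth, had 15.2 RPKM in ume6∆snf2∆, 5.92 in ume6∆, 19.6 in snf2∆ and 35.1 in WT. WT was the highest library and ume6∆ the lowest. The ratio of ume6∆ to WT was 0.169 (interval 0.148 to 0.192), the lowest ratio of any member in the 5 comparisons. The ratio of snf2∆ to WT was 0.558 (interval 0.511 to 0.610), while that of ume6∆snf2∆ to ume6∆ was 2.57 (interval 2.20 to 3.01).

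DUR3 (YHL016C, chrVIII:72037-74244), the urea transporter, had 12.8 RPKM in ume6∆snf2∆, 5.63 in ume6∆, 8.88 in snf2∆ and 13.9 in WT. ume6∆snf2∆ and WT could not be told apart, with a ratio of 0.917 and an interval of 0.819 to 1.03. The ratio of ume6∆ to WT was 0.404 (interval 0.357 to 0.457). DAL5 (YJR152W, chrX:719666-721297), the allantoate permease, had 9.92 RPKM in ume6∆snf2∆, 5.77 in ume6∆, 11.6 in snf2∆ and 13.4 in WT. Its ratio of ume6∆ to WT was 0.429 (interval 0.372 to 0.495), and that of snf2∆ to WT was 0.862 (interval 0.763 to 0.973). Like MEP2 and DUR3, DAL5 was lowest in ume6∆, and the log2 changes of DUR3 (-1.17) and DAL5 (-1.09) for ume6∆ over WT were -0.91 and -0.83 after median ratio scaling, short of 2-fold.

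**Figure D5:**
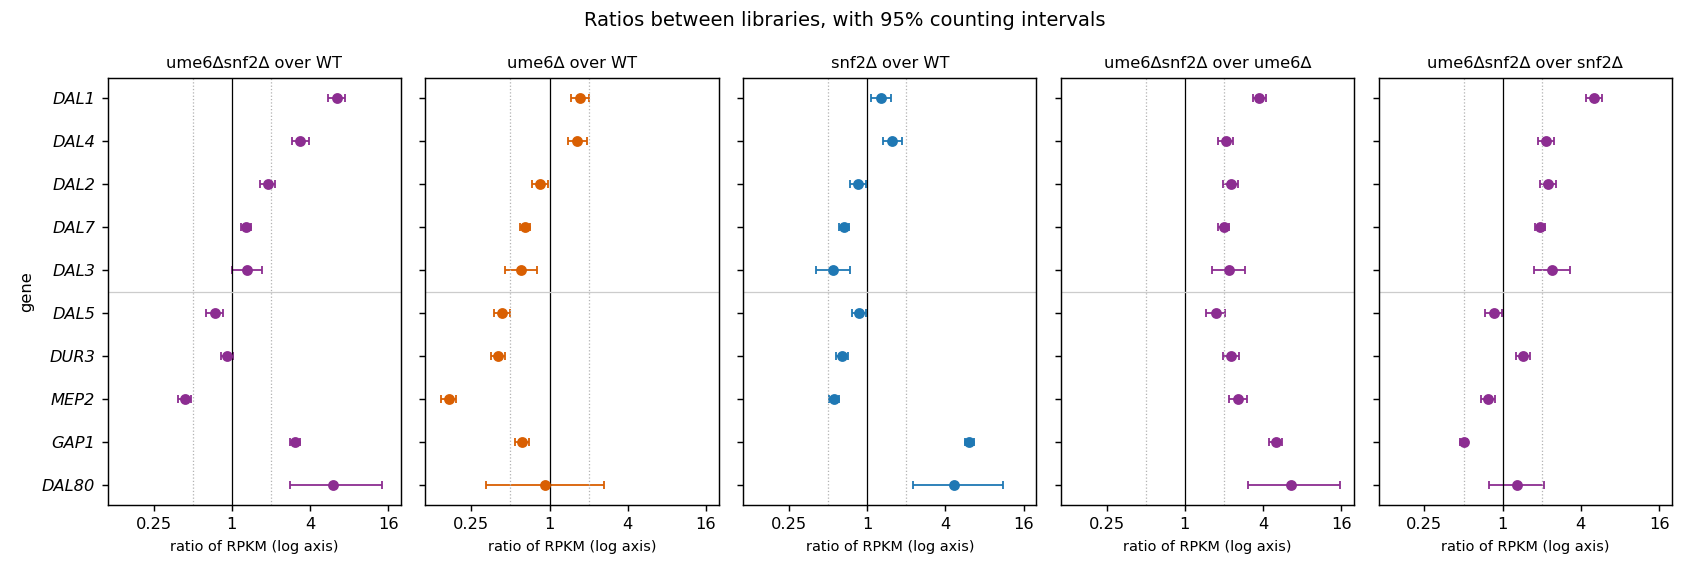
Ratio of RPKM (points, log axis) with 95% counting intervals (bars) for each member in the 5 comparisons; dotted lines mark 2-fold. The line across separates the cluster on chromosome IX from the other genes. GAP1 and DAL80 lie right of 2-fold in snf2∆ over WT, at 6.11 and 4.68, and MEP2 lies farthest left in ume6∆ over WT, at 0.169.

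The counts over the 10 genes follow from these patterns and are read against all 6520 genes kept. For ume6∆snf2∆ over WT 4 members were higher (DAL1, DAL4, GAP1 and DAL80), against 10.4% of all genes, and 1 was lower (MEP2), against 9.97%. The median member changed by 0.61. For ume6∆ over WT 0 were higher, against 4.59%, and 3 were lower (MEP2, DUR3 and DAL5), against 15.2%, with a median of -0.61. For snf2∆ over WT 2 were higher (GAP1 and DAL80), against 3.31%, and 0 lower, against 7.96%, with a median of -0.21. For ume6∆snf2∆ over ume6∆ 6 were higher (DAL1, DAL2, DAL80, DUR3, GAP1 and MEP2), against 11.1%, and 0 lower, against 3.45%, with a median of 1.08. For ume6∆snf2∆ over snf2∆ 4 were higher, all in the cluster (DAL1, DAL2, DAL3 and DAL4), against 8.13%, and 0 lower, against 2.38%, with a median of 0.70. Comparisons that share a library are not independent of each other.

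The counts changed with the scaling and with the chromosome medians. With median ratio scaling, ume6∆snf2∆ over WT had 4 members higher, against 9.51% of all genes, and 1 lower, against 10.7%. For ume6∆ over WT that scaling left 0 higher, against 8.68%, and 1 lower (MEP2), against 8.39%. It left 2 higher in snf2∆ than in WT, against 3.82%, and 0 lower, against 6.79%. Scaled in this way ume6∆snf2∆ had 3 higher than ume6∆ (GAP1, DAL1 and DAL80), against 5.17%, and 0 lower, against 6.64%. Over snf2∆ it had 1 higher (DAL1), against 6.07%, and 1 lower (GAP1), against 3.56%. Minus the chromosome medians, 3 members were higher in ume6∆snf2∆ than in WT (GAP1, DAL1 and DAL80), against 8.08%, and 1 lower, against 10.4%. On the same footing 0 were higher in ume6∆ than in WT, against 7.67%, and 3 lower (MEP2, DAL3 and DAL7), against 8.3%. GAP1 and DAL80 stayed higher in snf2∆ than in WT, against 3.96%, with 0 lower, against 6.57%. The members higher in ume6∆snf2∆ than in ume6∆ numbered 3 (GAP1, DAL1 and DAL80), against 4.37%, with 0 lower, against 6.6%. DAL1 was higher in ume6∆snf2∆ than in snf2∆, against 4.6%, GAP1 was lower, against 3.08%, and the median member was at 0.03.

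The differences between libraries without and with SNF2 were set side by side in the strains without and with Ume6. These libraries also differ in cell-type markers, and ume6∆snf2∆ in MET17 and LYS2. The part of those differences was not tested. The log2 change for ume6∆snf2∆ over ume6∆ minus that for snf2∆ over WT was at least 1 for 6 of 10 members, against 21.5% of all genes, and at most -1 for 0, against 3.91%. The largest difference was in MEP2, at 1.23 and -0.81, then in DAL3 (0.98 and -0.74) and DUR3 (1.05 and -0.59). As measured, GAP1, at 2.18 and 2.52, and DAL80, at 1.32 and 1.04, differed least from equal changes, together with DAL4 (0.95 and 0.54). For GAP1 this depended on the scaling. Its difference was -0.768 after median ratio scaling, farther from equal than that of DAL5 (0.479), and -0.744 minus the chromosome medians. DAL80 and DAL4 stayed near equal after median ratio scaling, at 0.083 and 0.001. The median difference was 1.41 for the members and 0.48 for all genes. It was 0.98 for the members and 0.04 for all genes after median ratio scaling. With that scaling 5 members (MEP2, DAL3, DUR3, DAL1 and DAL7) were at least 1, against 9.85% of all genes. Minus the chromosome medians 3 were (MEP2, DAL3 and DUR3), against 8.82%.

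The 14 other nitrogen-repressed genes listed did not move as one group either. Of these, 6 were higher in ume6∆snf2∆ than in WT, against 10.4% of all genes, and 1 was lower, against 9.97%. In ume6∆ 3 were higher than in WT, against 4.59%, and 3 lower, against 15.2%, or 4 and 1 with median ratio scaling, against 8.68% and 8.39%. In snf2∆ 3 were higher than in WT, against 3.31%, and 1 was lower, against 7.96%. Set against ume6∆, ume6∆snf2∆ had 5 higher, against 11.1%, and 1 lower, against 3.45%, or 1 and 1 with that scaling, against 5.17% and 6.64%. Set against snf2∆ it had 5 higher, against 8.13%, and 0 lower, against 2.38%, or 3 and 0 scaled, against 6.07% and 3.56%. UGA4, the permease for gamma-aminobutyrate, had 15.1 RPKM in ume6∆snf2∆, 5.80 in ume6∆, 2.04 in snf2∆ and 1.60 in WT, the order of libraries seen for DAL1, but on chromosome IV. PUT1, proline oxidase, on chromosome XII, had 26.3 RPKM in ume6∆snf2∆, 9.87 in ume6∆, 5.56 in snf2∆ and 7.46 in WT. PUT4, the proline permease, had 9.29 RPKM in ume6∆snf2∆, 1.20 in ume6∆, 4.03 in snf2∆ and 1.23 in WT, and DUR1,2, urea amidolyase (DUR12 in the annotation), had 47.4, 19.5, 76.2 and 24.0 RPKM in that order. Both were high without SNF2, as GAP1 and DAL80 were. The arginine breakdown genes CAR1 and CAR2 followed other orders. CAR1 (arginase) had 566 RPKM in ume6∆snf2∆, 266 in ume6∆, 273 in snf2∆ and 18.1 in WT, and CAR2 (ornithine aminotransferase) had 92.7, 236, 12.2 and 24.2 RPKM in that order. Of the others, AGP1, an amino acid permease, CPS1, a vacuolar carboxypeptidase, and OPT2, a transporter, were at least 2-fold lower in ume6∆ than in WT, at log2 changes of -1.48, -1.22 and -1.03. With median ratio scaling these were -1.19, -0.92 and -0.76, so AGP1 alone of the 3 stayed past 2-fold. DCG1 is given with the cluster.

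Among the regulators of the 10 genes, both activators were lower in ume6∆ than in WT. GAT1, an activator, had 35.7 RPKM in ume6∆snf2∆, 14.8 in ume6∆, 47.2 in snf2∆ and 52.6 in WT, and GLN3, the other activator, had 57.2, 20.6, 56.0 and 44.3 RPKM in that order. Both were lowest in ume6∆, as were DAL5, DUR3, MEP2 and GAP1 and, by small margins, DAL2, DAL7 and DAL80. The median of all genes was lowest there too, at 30.8 RPKM. The log2 changes for ume6∆ over WT were -1.76 for GAT1 and -1.07 for GLN3. With median ratio scaling they were -1.48 and -0.78. GZF3, the other GATA-family repressor, had 49.9 RPKM in ume6∆snf2∆, 29.9 in ume6∆, 31.3 in snf2∆ and 58.0 in WT, and URE2 had 94.7, 63.8, 102 and 66.2 RPKM. DAL81 and DAL82, needed for induction of the allantoin genes, were at 84.9 and 32.1 RPKM in ume6∆snf2∆, 56.7 and 18.0 in ume6∆, 37.0 and 22.0 in snf2∆, and 49.5 and 27.5 in WT. DAL81 lies on chromosome IX, and its changes over WT of 0.76 for ume6∆snf2∆ and 0.19 for ume6∆ were -0.28 and -0.40 minus the chromosome median. UGA3, the activator of UGA4, had 84.0 RPKM in ume6∆snf2∆, 17.3 in ume6∆, 113 in snf2∆ and 55.3 in WT, an order unlike that of UGA4. PUT3, the activator of PUT1, had 116, 122, 69.0 and 52.0 RPKM in that order. Of the 10 regulators, 3 were lower in ume6∆ than in WT, against 15.2% of all genes, and 1 was higher, against 4.59%. With median ratio scaling these were 2 and 1, against 8.39% and 8.68%. In ume6∆snf2∆ 3 were higher than in ume6∆, against 11.1%, or 2 with that scaling, against 5.17%. As measured 0 were lower, against 3.45%, and with that scaling 0, against 6.64%.

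Ammonium assimilation genes had their highest levels in snf2∆ for GDH1, GLN1, GLT1 and MEP3. GDH1, glutamate dehydrogenase, had 366 RPKM in ume6∆snf2∆, 132 in ume6∆, 1009.6 in snf2∆ and 302 in WT. GLN1, glutamine synthetase, had 929 RPKM in ume6∆snf2∆, 475 in ume6∆, 2038.6 in snf2∆ and 999 in WT. MEP3, a lower-affinity ammonium permease, had 79.8 RPKM in ume6∆snf2∆, 40.2 in ume6∆, 152 in snf2∆ and 63.6 in WT, so it was higher in snf2∆ than in WT where MEP2 was lower. GLT1 had 129, 70.1, 278 and 204 RPKM in that order. MEP1 and GDH3 had log2 changes of -1.33 and -1.23 for ume6∆ over WT, against -2.38 for MEP2. Of the 6 genes 5 were lower in ume6∆ than in WT, against 15.2% of all genes, or 2 with median ratio scaling, against 8.39%. In snf2∆ 3 were higher than in WT (GDH1, GLN1 and MEP3), against 3.31%. Of 6 amino acid permeases under the amino acid sensor of the plasma membrane, 5 were lower in ume6∆snf2∆ than in WT, against 9.97% of all genes. These were BAP2, BAP3, TAT1, TAT2 and DIP5, at -1.36, -2.47, -2.27, -1.45 and -1.29, where GAP1 was higher at 1.54. GNP1 was at -0.78. In snf2∆ BAP2, BAP3 and TAT1 were lower than in WT, at -1.14, -1.48 and -2.21, against 7.96% of all genes. DIP5, an acidic amino acid permease, was higher there at 1.08, against 3.31%.

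The genes outside the list with the profile nearest to the median profile of the 10 genes were PDC5, AIM3, FYV6, CTR3 and LAA2. Likeness was the Euclidean distance between log2(RPKM + 1) values centred over the 4 libraries, which was 0.104 to 0.128 for these 5. The members themselves lay at 0.313 (DAL7) to 2.24 (GAP1), and 96.6% of the other genes with a symbol lay nearer than GAP1, 89.6% nearer than MEP2 and 87.2% nearer than DAL1. For DAL7, DAL2 and DAL3 2.0%, 2.17% and 7.12% of the other genes lay nearer, so the members did not share 1 profile. PDC5, a pyruvate decarboxylase gene, had 29.7 RPKM in ume6∆snf2∆, 13.4 in ume6∆, 15.99 in snf2∆ and 19.0 in WT. With 4 libraries many genes share an order of levels, and likeness of profile is given as a description.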

How the data were processed

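Values are the RPKM per gene that the authors deposited for 4 libraries, 1 per strain. The submitters' processing notes name sacCer3, CASAVA and STAR 2.4.0 without a role; the counting tool and annotation were not found in the labels. Of the table, 3 lines that name no gene (0.0811% to 0.221% of summed RPKM) were left out, and 5986 of 6659 names matched R64, the assembly behind sacCer3. RPKM was multiplied by gene length and by a library size, which was fitted for each library so that the values became whole. This gave whole reads for 99.5% to 99.6% of values (tolerance 0.05 reads). Changes used log2(RPKM + 1) over genes averaging 1 RPKM or more, and no replicate test was possible. The functions were tested on simulated data. Promoters were read from the genome, since no promoter table was used. The members and lists were chosen with earlier results of these data known. Named genes are the members, the deleted genes, listed nitrogen genes changed 2-fold, 6 regulators, the cluster with its neighbours and the 5 nearest profiles; MET17, LYS2 and GNP1 were named after their values were seen. Alternatives were median ratio scaling, pseudocounts of 0.1 and 5, no filter, a mean of at least 10 RPKM and leaving out the cluster. Members that overlap a gene on the other strand were also to be left out, but no R64 gene overlapped one. Names without a match in R64 were not checked for this. Changes relative to the chromosome median were a further alternative, chosen after seeing the data. Python 3.11.15, pandas 2.3.3 and scipy 1.17.1 were used.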

Additional observations from a re-analysis of the deposited data

Results flagged for a closer look

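Several members differed in opposite directions between libraries with and without the same deletion in 2 backgrounds. Both counting intervals, of the unscaled ratios, were clear of a ratio of 1, and the signs were the same after median ratio scaling. The difference was not tested, since each arm is 1 library. Levels were higher in ume6∆snf2∆ than in ume6∆ and lower in snf2∆ than in WT for MEP2 (difference of log2 changes 2.04), DAL3 (1.72), DUR3 (1.65), DAL7 (1.52), DAL2 (1.33) and DAL5 (0.89). Levels were higher in ume6∆snf2∆ than in snf2∆ and lower in ume6∆ than in WT for DAL3 (1.72), DUR3 (1.65) and DAL7 (1.52), which is the same difference taken the other way. The median gene had the same signs, at 0.35 and -0.11 in the comparisons for Snf2 and 0.14 and -0.30 in those for Ume6. The median difference over all genes was 0.48, and 21.5% of them were at 1 or more. With median ratio scaling it was 0.04 for all genes and 0.48 for DAL5. For snf2∆ over WT the scaled changes of DAL2 (-0.128) and DAL5 (-0.104) were within counting error. Their counting intervals reached 0.209 and 0.175 to either side. The share of all genes with opposite signs was not computed. DAL3, DAL7 and DAL2 lie on chromosome IX, whose median was 0.49 for ume6∆snf2∆ over ume6∆ and -0.07 for snf2∆ over WT, while MEP2, DUR3 and DAL5 do not. In the comparisons for Ume6 the chromosome IX median was 1.03 for ume6∆snf2∆ over snf2∆ and 0.59 for ume6∆ over WT. Minus these medians DAL7 was at -0.11 and -1.19, lower in both, and DAL3 was at 0.06 and -1.22. The libraries also differed by more than the deletions. The log2 change of MET17 was 10.12 for ume6∆snf2∆ over ume6∆ and -0.10 for snf2∆ over WT, and that of LYS2 was -6.05 and 1.14 in the same comparisons. All 4 alpha-cell markers were higher and all 5 a-cell markers lower in ume6∆snf2∆ than in ume6∆, and likewise in snf2∆ than in WT. These differences and the deletions cannot be told apart.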

How the results depend on the processing

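With median ratio scaling, 1 member was lower in ume6∆ than in WT and the median was -0.34. That scaling gave 3 higher and a median of 0.75 for ume6∆snf2∆ over ume6∆, and 1 higher and 1 lower for ume6∆snf2∆ over snf2∆. With a pseudocount of 5, ume6∆snf2∆ over WT had 0 lower and a median of 0.38, ume6∆ over WT had 1 lower, snf2∆ over WT had 1 higher, ume6∆snf2∆ over ume6∆ had 2 higher and a median of 0.78, and ume6∆snf2∆ over snf2∆ had 1 higher. A mean of at least 10 RPKM kept 7 members, with 2 higher and a median of 0.35 for ume6∆snf2∆ over WT, 1 higher for snf2∆ over WT, and 2 higher and a median of 0.48 for ume6∆snf2∆ over snf2∆. The share of all genes called was not computed with the pseudocount of 5 or with this filter. Whether these counts fell more than those of all genes was therefore not tested. Without the DAL cluster, the medians were -0.12 for ume6∆snf2∆ over WT, -1.09 for ume6∆ over WT and -0.20 for ume6∆snf2∆ over snf2∆. Relative to the chromosome median, chosen after seeing the data, the medians were -0.14 for ume6∆snf2∆ over WT, -0.82 for ume6∆ over WT, 0.67 with 3 higher for ume6∆snf2∆ over ume6∆, and 0.027 with 1 higher and 1 lower for ume6∆snf2∆ over snf2∆. In that reading 6 member values changed sign: DAL4 (-0.011) and DAL7 (-0.11) for ume6∆snf2∆ over snf2∆, DAL2 (-0.18), DAL3 (-0.70) and DAL7 (-0.70) for ume6∆snf2∆ over WT, and DAL80 (0.29) for ume6∆ over WT. With DAL4, 30 of the 50 member values moved by more than their counting error. Median ratio scaling turned DAL2 (0.05) and DAL80 (0.05) for ume6∆ over WT. All 50 moved by less than their counting error with no filter and with a pseudocount of 0.1. With that pseudocount the members higher in ume6∆snf2∆ than in ume6∆ still rose from 6 to 8. DAL3 (1.10) and DAL4 (1.03) passed 2-fold. The share of all genes called was not computed with it. Where a value changed, the cause was not tested. No paired analysis was possible because each strain has 1 library. DAL80, with 9 reads in ume6∆ and 9 in WT, limits what its values can show.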
